A study of Mus musculus with 18 samples.

Results

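The genes described here encode the pore-forming and auxiliary subunits of voltage-gated sodium and calcium channels, of pacemaker channels and of potassium channels. They were taken by name from the genes measured in mouse cardiomyocytes. A gene was a member if its mouse symbol began with Kcn, Cacn or Hcn, or with Scn followed by a digit, and 4 symbols that meet this rule are not reported here. The rule uses no measured value. It found 48 members among the 12048 genes in the tables, out of 139 such symbols in the mouse annotation, so 91 symbols were not listed and are not analysed here. The 48 comprise 3 sodium channel pores and 2 sodium channel beta subunits, 4 calcium channel pores and 7 calcium channel auxiliary subunits, 2 pacemaker channels, 13 voltage-gated potassium pores and 6 potassium channel auxiliary subunits, 8 inward rectifiers, 1 two-pore-domain potassium channel and 2 calcium-activated potassium channels.

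The cells came from hearts of Mlc2vcre:R26REYFP mice. All groups share this genotype, in which the Mlc2v (Myl2) gene, active in ventricular muscle, drives a Cre that turns on YFP, so the marked cells are mostly ventricular. Fluorescence-activated sorting separated binucleated cardiomyocytes (2N) from mononucleated cardiomyocytes (1N) at embryonic (E18.5), postnatal (P7) and adult ages. Each of the 6 groups had 3 libraries, 18 in all. The study set 2N against 1N cells across these ages. The sources used here do not say whether libraries numbered 1 to 3 are separate animals, and the p-values then reflect only the scatter of these libraries, which could be technical.

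Voltage-gated channels shape the cardiac action potential. Sodium channels carry the upstroke, calcium channels carry the plateau current that triggers contraction, and several potassium currents repolarise the cell and hold its resting potential. Pores pass the current, whereas auxiliary subunits set how many channels reach the membrane and how fast they open and close. The mouse ventricle is known to change its set of channels after birth, when the action potential shortens and the fast transient outward potassium current grows.

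Levels are given as CPM, and changes as log2 fold changes of the deposited log2 values with their standard error (SE). CPM are recovered read counts scaled by the factor in each library's deposited values, not by its total count. The effective library sizes were 106% to 118% of the total counts at E18.5, 97.6% to 110% at P7 and 84.7% to 87.0% in the adult. A member was called in a comparison when its limma p-value, adjusted by Benjamini and Hochberg over all 12048 genes, was below 0.05. Library totals lay between 14833334 and 22690952 counts. All 12 cardiomyocyte marker genes were present in all 18 libraries, with summed levels of 36872 to 58803 CPM, against 64.1 to 1499 CPM for the 10 listed fibroblast markers and 11 to 137 CPM for the 12 endothelial markers. Some libraries stood apart from their group. The E18.5 2N library numbered 1 had the lowest total and low values of Kcnj5 and Kcnq1. Both adult libraries numbered 3 were low in Kcng2, Hcn2 and Kcnk3. Without that E18.5 2N library, 26 pairs of a member and a comparison were called that were not called with it. Many of them, but not all, are given beside the values described. Some of these pairs compare other groups, whose values stay the same when it is left out, so that their p changes only through the spread that all groups share in the fit. A member is described as not called where it missed the threshold with all 18 libraries.

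More channel genes were called between ages than between classes. Of the 48 members, 44 were called in at least 1 of the 6 comparisons between ages, and 1 in the 3 comparisons between classes. The share of all genes over the same sets of comparisons was not counted. Single age comparisons called 18.52% to 57.7% of all genes, and single class comparisons 0.0913% to 2.12%. More calls between ages than between classes therefore held for all genes too. Summed levels of the 10 fibroblast markers also differed by age, with 685 to 1499 CPM in E18.5 2N and 668 to 736 CPM in E18.5 1N, 195 to 236 CPM in P7 2N and 242 to 268 CPM in P7 1N, and 64.1 to 113 CPM in adult 2N and 88.0 to 134 CPM in adult 1N. Single markers did not all follow these sums. From E18.5 to P7 all 10 were called lower in 2N, and 4 lower and 0 higher in 1N. From P7 to the adult 3 were called higher and 2 lower in each class. The median log2 fold change of the 10 over that step was 1.12 in 2N and 0.93 in 1N, opposite to the sums. From E18.5 to the adult 9 were called lower and 0 higher in 2N, and 3 in each direction in 1N. The part of the fibroblast markers in the age results was not tested. From E18.5 to P7, 17 members rose and 7 fell in 2N cells (50% called), where 36% of all genes were called, with a median log2 fold change of 0.58 over the members and 0.03 over all genes. In 1N cells 16 rose and 4 fell over this step (41.7%), against 18.52% of all genes, with medians of 0.73 and 0.01. Without the E18.5 1N library numbered 2 the 1N count was 13. Between P7 and the adult, 11 members rose and 11 fell in 2N cells (45.8%, against 37% of all genes), and 14 rose and 13 fell in 1N cells (56.2%, against 41.4% of all genes). The members' median over this step was −0.14 in 2N and 0.25 in 1N, beside −0.03 and −0.01 over all genes. Over the whole interval from E18.5 to the adult, 22 rose and 17 fell in 2N cells (81.2%, against 57.7% of all genes), and 21 rose and 12 fell in 1N cells (68.8%, against 53.8% of all genes), with medians of 0.44 in 2N and 0.57 in 1N over the members and −0.02 and −0.01 over all genes. Exons of 21 members overlap those of another annotated gene, on the opposite strand for all but Kcnab2, and whether counting used the strand is not known from the sources used here, so these members' counts are uncertain to that extent. They include Cacna1a, Cacna1d, Cacna1h, Cacna1s, Cacna2d2, Cacnb1, Cacnb2, Cacnb4, Kcnab2, Kcnab3, Kcnd3, Kcng2, Kcnh7, Kcnj3, Kcnj6, Kcnk3, Kcnn1, Kcnn2, Kcnq1 and Kcnq5.

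The age changes of the classes come from different libraries. Same-numbered 2N and 1N libraries deviated together at P7 and in the adult, and more weakly at E18.5, so the classes are not independent repeats. Of the members called between E18.5 and P7, 14 were called in both classes with the same direction, which is 58.3% of the 2N calls and 70% of the 1N calls, against 38.8% and 75.3% over all genes. Between P7 and the adult 21 were shared (95.5% of the 2N calls and 77.8% of the 1N calls, against 85.9% and 76.7% over all genes). Between E18.5 and the adult 32 were shared (82.1% of the 2N calls and 97% of the 1N calls, against 79% and 84.7% over all genes). No member was called in opposite directions in the classes over any of these 3 intervals, against 22, 2 and 11 of all genes. Shared calls among the 43 members drawn stand out as vertical blocks of colour in the heat map.

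**Figure D1:**
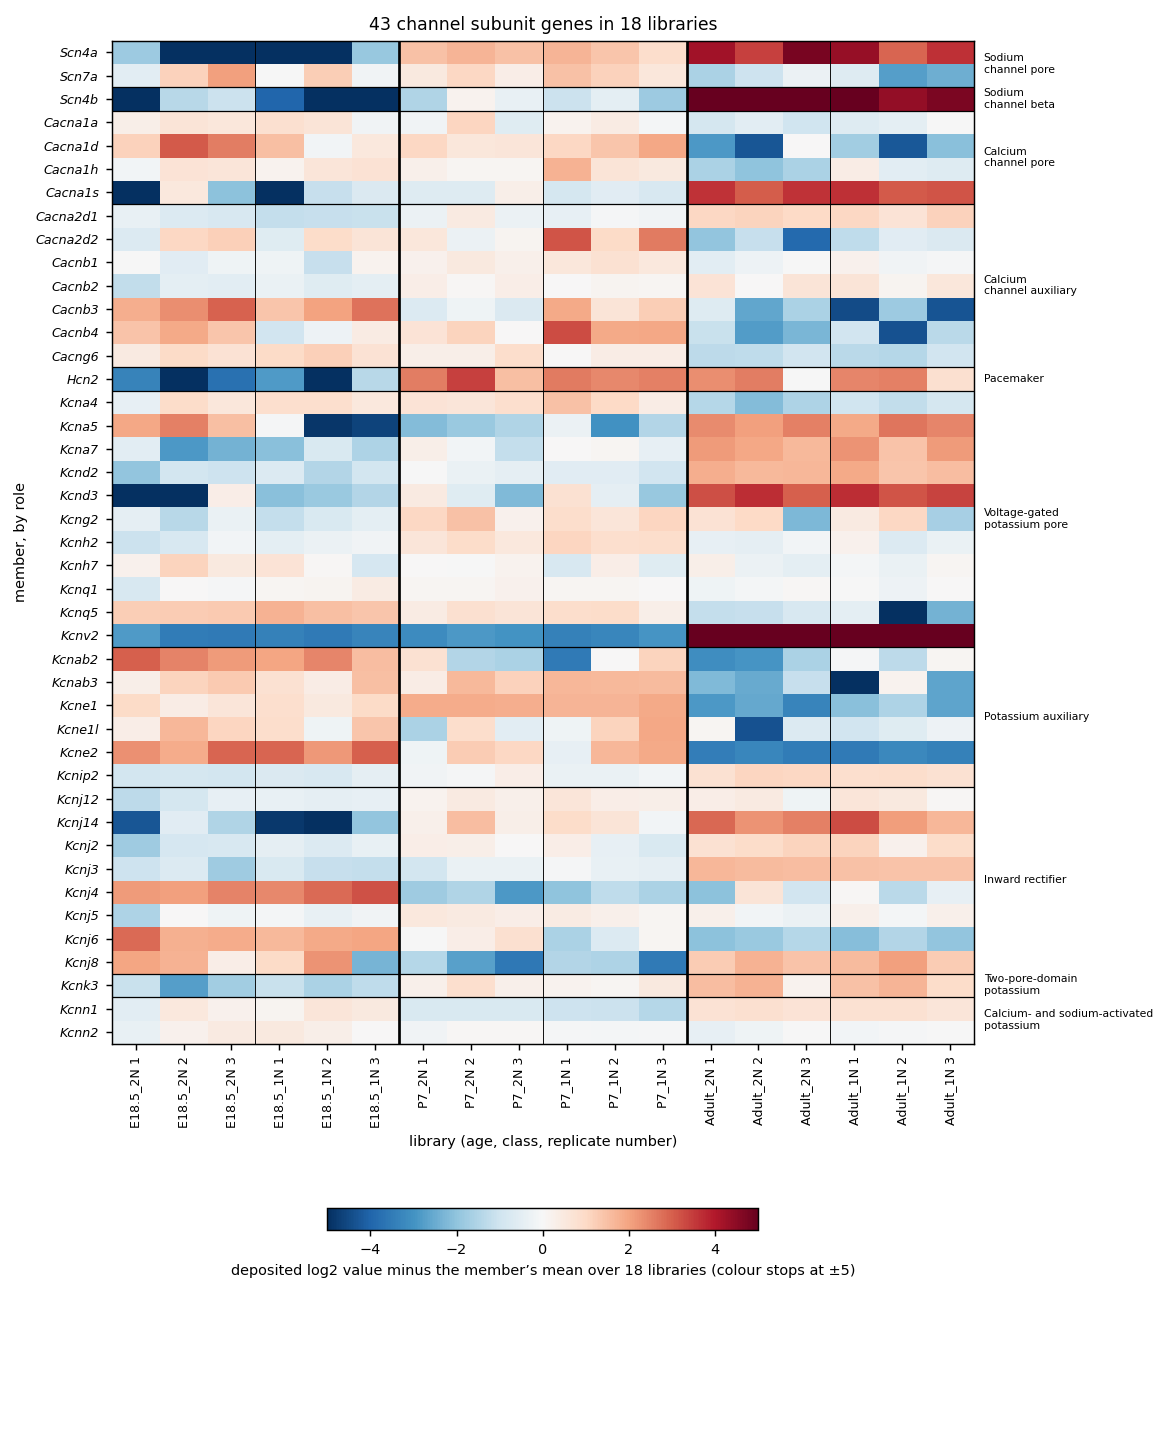
Members (rows, 43 of the 48, grouped by role) in the 18 libraries (columns, by age, class and replicate number). Colour is the deposited log2 value minus the member's mean over all libraries, red above and blue below; Kcnv2, Scn4b and Scn4a are red in the 6 adult libraries, and Kcne1 and Kcne2 are blue there.

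**Figure D2:**
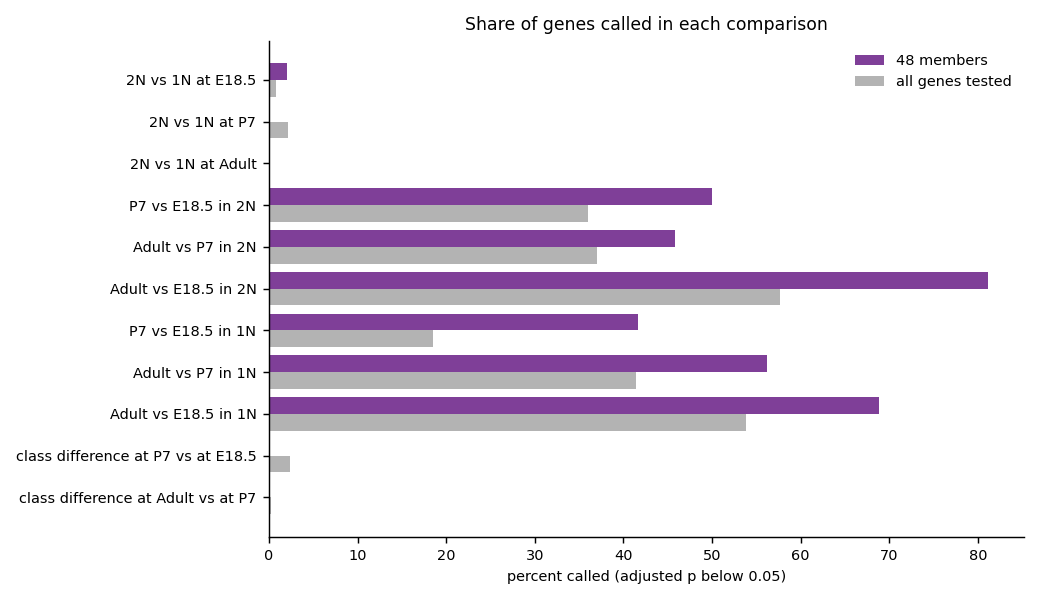
Percent of genes called (limma adjusted p below 0.05) in each comparison, for the 48 members (purple) and all 12048 genes (grey). The members' bars reach 81.2% and 68.8% for adult against E18.5 in 2N and 1N cells, and at most 2.08% in the comparisons of 2N with 1N cells.

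The sequences below are those of 4 members that were at or near 0 counts in at least 1 group and not in another, so that their presence itself differed. They are the 250 bases before the transcription start, from RefSeq on build GRCm38.p6, 5′ to 3′ on the gene's strand. The Scn4b stretch is chr9:45138374-45138623 (plus strand), Hcn2 chr10:79716384-79716633 (plus strand), Kcne2 chr16:92292139-92292388 (plus strand, the first of its 2 listed starts) and Kcna5 chr6:126535556-126535805 (minus strand). Capitals mark matches on either strand to CCACCC, which Krüppel-like factors can bind, or to CATTCC, which TEAD factors can bind. None of the matches shown overlap each other.
Scn4b: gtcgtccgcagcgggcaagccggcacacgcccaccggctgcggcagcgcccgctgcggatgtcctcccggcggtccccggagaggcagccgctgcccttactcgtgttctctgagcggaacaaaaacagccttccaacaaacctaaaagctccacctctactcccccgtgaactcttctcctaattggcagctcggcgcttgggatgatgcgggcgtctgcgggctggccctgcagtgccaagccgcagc
Hcn2: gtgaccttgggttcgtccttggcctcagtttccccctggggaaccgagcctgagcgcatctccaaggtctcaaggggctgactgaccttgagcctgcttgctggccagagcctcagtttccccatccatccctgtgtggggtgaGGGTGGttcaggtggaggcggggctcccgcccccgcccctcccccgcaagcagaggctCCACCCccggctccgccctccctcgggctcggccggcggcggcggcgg
Kcne2: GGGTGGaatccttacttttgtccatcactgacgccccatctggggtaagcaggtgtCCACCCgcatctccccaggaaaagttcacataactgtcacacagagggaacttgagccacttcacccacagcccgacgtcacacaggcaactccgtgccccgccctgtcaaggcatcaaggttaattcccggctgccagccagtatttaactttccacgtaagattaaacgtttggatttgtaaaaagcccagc
Kcna5: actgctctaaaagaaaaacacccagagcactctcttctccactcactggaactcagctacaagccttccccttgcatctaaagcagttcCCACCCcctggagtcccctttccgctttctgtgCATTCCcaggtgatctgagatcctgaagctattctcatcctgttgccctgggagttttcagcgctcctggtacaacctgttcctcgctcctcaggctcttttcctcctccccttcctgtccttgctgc
Hcn2 and the Kcne2 stretch shown each hold CCACCC once on each strand, Kcna5 holds CCACCC and CATTCC once each, and Scn4b holds neither. The stretch before the second listed Kcne2 start, not shown, also holds neither. Among all 32851 promoters in the table, 28.1% hold CCACCC and 12.6% hold CATTCC, against 60% and 15.6% of the 45 promoters of the 33 members that matched. TATAAA is in 12.4% of all promoters, AGATAA in 9.99% and CTANNNNTAG in 3.2%, and none of them is in the 4 stretches on either strand. CANNTG, which 66.2% of all promoters hold, was searched but left in lower case. A match is a description of the letters and not a binding site, and base composition was not matched between these promoters.

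Among the sodium channel genes, Scn4b and Scn4a rose with age and Scn7a fell. Scn4b, the beta subunit linked to resurgent sodium current, was nearly absent before the adult. Its counts were 0, 22 and 28 in the E18.5 2N libraries and 3, 0 and 0 in the E18.5 1N libraries. It had 0.807, 2.61 and 1.80 CPM in P7 2N and 1.09, 1.63 and 0.640 CPM in P7 1N. In the adult it reached 146, 73.2 and 97.7 CPM in 2N and 137, 49.6 and 61.2 CPM in 1N libraries. No adult value overlapped an earlier one. Adult exceeded P7 by 6.0 ± 1.06 SE (adjusted p = 0.000298) in 2N and 6.12 ± 1.06 SE (adjusted p = 0.000210) in 1N on the log2 scale. Summed over the group, adult 1N had 4212 counts against 3 in E18.5 1N, a ratio of 2054 with an exact 95% interval of 702 to 9965 that covers counting error only. The rise in 1N from E18.5 to P7 (4.74 ± 1.06 SE, adjusted p = 0.00470) rests on the 3 counts of E18.5 1N and was not called with voom weights (0.0846).

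Scn4a, best known as the sodium channel pore of skeletal muscle, rose between E18.5 and P7. It was at 0 in 4 of the 6 E18.5 libraries and at 7.12, 8.50 and 7.16 CPM in P7 2N and 8.34, 6.71 and 4.71 CPM in P7 1N. Adult libraries held 48, 28.2 and 69.9 CPM in 2N and 54, 19.4 and 33.1 CPM in 1N. The change from E18.5 to P7 was 6.86 ± 1.27 SE (adjusted p = 0.000612) in 2N and 6.61 ± 1.27 SE (adjusted p = 0.00154) in 1N, and with libraries at 0 its fitted size depends on the offset of 0.5 counts. With an offset of 2 it was 5.48 and 5.25. Although no adult value overlapped a P7 value, that step was not called (2.59, adjusted p = 0.127 in 2N, and 2.34, adjusted p = 0.157 in 1N). It was called in both classes with an offset of 2 (0.0256 in 2N and 0.0380 in 1N), with voom weights (0.000344 and 0.000891), with array weights (0.0208 and 0.0173), in a fit of the groups compared (0.000360 and 0.000718) and without E18.5 2N library 1 (0.0322 and 0.0475).

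Scn7a, an atypical sodium-sensing channel, had 0.354, 0.533 and 0.919 CPM in adult 2N and 0.714, 0.138 and 0.184 CPM in adult 1N, against 1.61, 2.36 and 1.41 CPM in P7 2N and 3.13, 2.56 and 1.69 CPM in P7 1N. The fall from P7 to the adult was called in 1N (−3.0 ± 0.67 SE, adjusted p = 0.00191) and not in 2N (−1.59 ± 0.67 SE, adjusted p = 0.0756), where it was called without E18.5 2N library 1 (0.0311), with array weights (0.0100) and in a fit of the groups compared (0.0192).

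**Figure D3:**
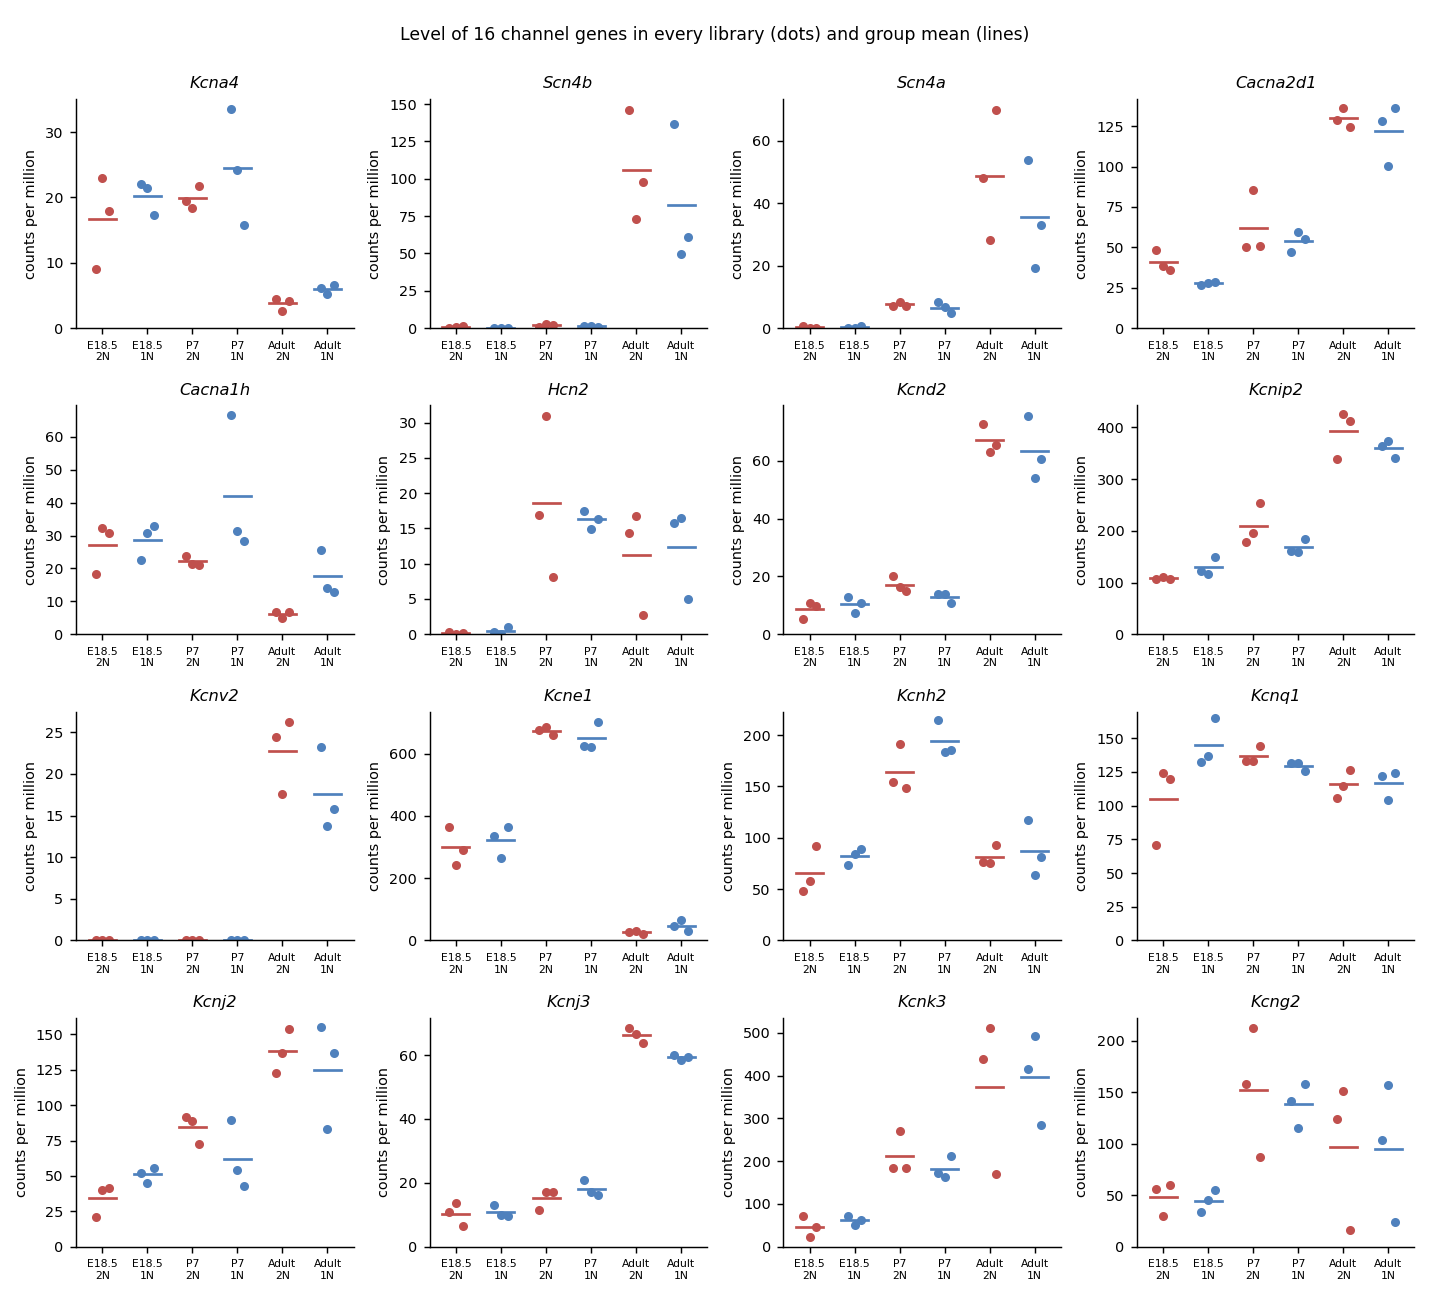
CPM of 16 members in every library (dots; 3 per group) with the group mean (line), for 2N (red) and 1N (blue) cells at each age; each panel has its own axis from 0. Kcnv2 and Scn4b appear in the adult, Kcne1 drops to 19.2 to 65.4 CPM there, and Kcng2 has 1 low adult library in each class.

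Among the calcium channel pores, the members known from embryonic heart, nodal tissue or nerve were lower in the adult in at least 1 class, and the skeletal muscle pore rose. Cacna1h, a T-type (low-voltage-activated) pore, had 18.3, 32.2 and 30.8 CPM in E18.5 2N and 22.4, 30.9 and 32.8 CPM in E18.5 1N. The P7 levels were 23.9, 21.5 and 21.2 CPM in 2N and 66.5, 31.3 and 28.2 CPM in 1N, and the adult levels 6.62, 5.0 and 6.66 CPM in 2N and 25.7, 14 and 13 CPM in 1N. Adult values lay below P7 values in each class. The fall from P7 was −1.87 ± 0.32 SE (adjusted p = 0.000235) in 2N and −1.21 ± 0.32 SE (adjusted p = 0.00618) in 1N, and against E18.5 it was called in 2N (−2.11 ± 0.32 SE, adjusted p = 3.25e-05) but not in 1N (−0.76 ± 0.32 SE, adjusted p = 0.0577). That 1N fall was called without E18.5 2N library 1 (0.0328) and without any of 3 other single libraries (0.0138 to 0.0448).

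Cacna1d, an L-type pore of the sinoatrial node, fell to at most 0.632 CPM in the adult, with 2 of 6 adult libraries at 0. Adult against E18.5 was −4.63 ± 0.92 SE (adjusted p = 0.000427) in 2N and −3.31 ± 0.92 SE (adjusted p = 0.00623) in 1N. Against P7 it was −3.11 ± 0.92 SE (adjusted p = 0.0136) in 2N, a call lost without adult 2N library 2 (−2.16, 0.0824), and −4.14 ± 0.92 SE (adjusted p = 0.00179) in 1N. Cacna1a, a pore of neuronal presynaptic channels, was called in 2N for adult against E18.5 alone (−1.30 ± 0.39 SE, adjusted p = 0.00921; 1N −0.80 ± 0.39 SE, adjusted p = 0.0956), a call lost with quantile normalization (0.207). Cacna1s, the voltage sensor of skeletal muscle excitation-contraction coupling, had 0, 4.05 and 0.662 CPM in E18.5 2N and 0, 1.22 and 1.67 CPM in E18.5 1N. It had 1.77, 1.74 and 3.38 CPM in P7 2N and 1.48, 1.86 and 1.57 CPM in P7 1N, then 34.1, 22.9 and 33.8 CPM in adult 2N and 35.1, 23.6 and 24.6 CPM in adult 1N. Every adult library exceeded every earlier one, and the E18.5 libraries spread from 0 upwards. Adult against E18.5 was called in 2N (6.06 ± 1.47 SE, adjusted p = 0.00211) and 1N (6.27 ± 1.47 SE, adjusted p = 0.00184). Adult against P7 was called in 1N (4.05 ± 1.47 SE, adjusted p = 0.0363) and lost without any 1 of those 6 libraries (0.0701 to 0.0905), and it was not called in 2N (3.75 ± 1.47 SE, adjusted p = 0.0558). The replicate block called the 2N step (0.0391), but for age comparisons it joins equal numbers across ages, which the labels do not link. The 2N step was called with an offset of 2 (0.00937), voom weights (0.000665), array weights (0.00623), quantile normalization (0.0287) and a fit of the groups compared (6.4e-05). It was also called without E18.5 2N library 1 (0.0119) and without any of 3 other single E18.5 libraries (0.0142 to 0.0486).

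The auxiliary subunits split. Cacna2d1, the alpha2delta subunit that carries pores to the membrane, was called higher in all 6 age comparisons. It had 48.3, 38.5 and 35.8 CPM in E18.5 2N and 27, 28 and 28.8 CPM in E18.5 1N. Levels were 50.3, 85.5 and 50.9 CPM in P7 2N and 47.4, 59.4 and 55.2 CPM in P7 1N, and 129, 136 and 125 CPM in adult 2N and 129, 101 and 136 CPM in adult 1N. Adult exceeded P7 by 1.11 ± 0.19 SE (adjusted p = 0.000188) in 2N and 1.17 ± 0.19 SE (adjusted p = 9.62e-05) in 1N. The smaller 2N step from E18.5 to P7 (0.57 ± 0.19 SE, adjusted p = 0.0250) moved to 0.32 (adjusted p = 0.144) without P7 2N library 2, and was also lost without E18.5 2N library 2 or 3. Cacnb2, the main beta subunit of the heart, rose from E18.5 to the adult in both classes (1.20 ± 0.20 SE, adjusted p = 8.05e-05 in 2N and 0.92 ± 0.20 SE, adjusted p = 0.00101 in 1N), with 210.3 ± 48.6 CPM in adult 2N and 209 ± 38.7 CPM in adult 1N (SD, n = 3 each).

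The other beta subunits were low. Cacnb3 fell from E18.5 to the adult, with log2 fold changes of −3.97 ± 0.71 SE (adjusted p = 0.000163) in 2N and −5.58 ± 0.71 SE (adjusted p = 5.78e-06) in 1N. Its counts in the 3 adult libraries summed to 10 in 2N and 2 in 1N, so adult 1N was 37.8-fold lower than P7 1N, with an exact 95% counting interval of 10.2 to 316. Cacnb4 fell from P7 to the adult (−2.68 ± 0.77 SE, adjusted p = 0.0118 in 2N and −4.58 ± 0.77 SE, adjusted p = 0.000161 in 1N), the 2N call being lost without P7 2N library 2 or adult 2N library 2 (0.0502 and 0.0535). From E18.5 to P7 it rose in 1N (2.63 ± 0.77 SE, adjusted p = 0.0248), a call lost without E18.5 1N library 1 or 2 or P7 1N library 1 (0.0639 to 0.115), while the 2N value was −0.95 ± 0.77 SE (adjusted p = 0.357). Cacng6, a gamma subunit, fell from P7 to the adult in both classes (−1.66 ± 0.23 SE, adjusted p = 2.63e-05 in 2N and −1.49 ± 0.23 SE, adjusted p = 6.55e-05 in 1N). Its smaller fall from E18.5 to P7 in 1N (−0.72 ± 0.23 SE, adjusted p = 0.0368) was lost without any of 5 libraries (0.0622 to 0.151). Cacna2d2, another alpha2delta subunit, fell from P7 to the adult, with −2.47 ± 0.72 SE (adjusted p = 0.0129) in 2N and −3.08 ± 0.72 SE (adjusted p = 0.00267) in 1N, the 2N call being lost with voom weights (0.117), with quantile normalization (0.0517) and without adult 2N library 3 (0.0794), P7 2N library 1 (0.0521) or both adult libraries numbered 3 (0.0932). Cacnb1, the beta subunit of skeletal muscle, rose in 1N from E18.5 to P7 (1.02 ± 0.27 SE, adjusted p = 0.0150), a call lost without E18.5 1N library 2 (0.0824) or P7 1N library 2 (0.0589), and was called in no other comparison. Conduction system markers other than Cacna2d2, 6 of those listed, also changed with age in 1N cells. They summed to 101 to 107 CPM in E18.5 1N, 312 to 622 CPM in P7 1N and 113 to 155 CPM in adult 1N. In 2N they summed to 87.1 to 122, 104 to 134 and 101 to 131 CPM at these ages. With Cacna2d2, 6 of 7 were called higher from E18.5 to P7 in 1N, and 5 lower and 0 higher to the adult. The part of these markers in the age changes of calcium channel genes was not tested.

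Hcn2, a pacemaker channel gene that carries the hyperpolarisation-activated current and is also found in ventricle, appeared between E18.5 and P7. Its E18.5 counts were 4, 0 and 5 in 2N and 9, 0 and 24 in 1N libraries. It had 16.9, 30.9 and 8.17 CPM in P7 2N and 17.5, 15 and 16.3 CPM in P7 1N, and 14.3, 16.7 and 2.76 CPM in adult 2N and 15.7, 16.5 and 4.96 CPM in adult 1N. No P7 library overlapped an E18.5 library. The rise to P7 was 7.25 ± 1.23 SE (adjusted p = 0.000287) in 2N and 6.31 ± 1.23 SE (adjusted p = 0.00169) in 1N, or 6.34 and 5.55 with an offset of 2 counts. In the adult the library numbered 3 was the lowest of each class, and the adult level was not called different from P7 (−0.89 ± 1.23 SE, adjusted p = 0.615 in 2N and −0.58 ± 1.23 SE, adjusted p = 0.741 in 1N). Without both adult libraries numbered 3 these differences were −0.07 and −0.01.

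The genes of the fast transient outward potassium current were higher in the adult than before it in both classes. From E18.5 to P7, Kcnd2 and Kcnip2 were called higher in 2N (1.04, adjusted p = 0.00564 and 0.93, adjusted p = 7.36e-05). In 1N they were not (0.33, adjusted p = 0.433 and 0.38, adjusted p = 0.0614), except with array weights (0.0498 and 0.0193). Kcnd3 was called in neither class over that step with all libraries. Kcnd2, the main pore of this current in mouse ventricle, had 5.16, 10.9 and 9.93 CPM in E18.5 2N and 12.9, 7.46 and 10.8 CPM in E18.5 1N. It had 20.1, 16.3 and 14.9 CPM in P7 2N and 13.8, 14 and 10.6 CPM in P7 1N, and 72.9, 63.2 and 65.6 CPM in adult 2N and 75.7, 54 and 60.8 CPM in adult 1N. The adult values stood clear of all earlier ones, and the rise from P7 was 1.98 ± 0.26 SE (adjusted p = 1.71e-05) in 2N and 2.30 ± 0.26 SE (adjusted p = 2.85e-06) in 1N. Kcnd3, its close relative, was at 0 in 2 E18.5 2N libraries and at most 1.48 CPM in the other 4 E18.5 libraries. It had 10.9, 15.3 and 9.36 CPM in adult 2N and 15.3, 10.5 and 12.2 CPM in adult 1N, against 1.56, 0.744 and 0.225 CPM in P7 2N and 1.95, 0.839 and 0.291 CPM in P7 1N. That step was 4.10 ± 1.17 SE (adjusted p = 0.0112) in 2N and 3.94 ± 1.17 SE (adjusted p = 0.0128) in 1N, and each call was lost without the P7 library numbered 3 of its class (0.0570 in 2N and 0.0641 in 1N). Counts of Kcnd3 per count of Kcnd2 were 0.150, 0.242 and 0.143 in adult 2N and 0.202, 0.195 and 0.200 in adult 1N, against 0.0779, 0.0456 and 0.0152 in P7 2N and 0.142, 0.0598 and 0.0273 in P7 1N.

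Kcnip2, the calcium-binding partner required for that current, was already at 107, 111 and 107 CPM in E18.5 2N and 122, 117 and 149.5 CPM in E18.5 1N. It had 178, 196 and 253 CPM in P7 2N and 161, 159 and 185 CPM in P7 1N, then 339.8, 427 and 412 CPM in adult 2N and 364, 373 and 342 CPM in adult 1N. Its replicates were tight, and adult exceeded E18.5 by 1.85 ± 0.14 SE (adjusted p = 7.81e-09) in 2N and 1.48 ± 0.14 SE (adjusted p = 1.34e-07) in 1N. Among other alternatives, the 1N step to P7 was called without E18.5 2N library 1 (0.0293) and in a fit of the groups compared (0.0273). Counts of Kcnip2 per count of Kcnd2 were 20.7, 10.2 and 10.8 in E18.5 2N and 9.46, 15.7 and 13.9 in E18.5 1N, and 8.86, 12 and 17 in P7 2N and 11.7, 11.3 and 17.4 in P7 1N. In the adult they were 4.66, 6.75 and 6.28 in 2N and 4.82, 6.91 and 5.62 in 1N, below every earlier library.

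Kcna4, the pore of the slow transient outward current, went the other way. It had 4.49, 2.67 and 4.14 CPM in adult 2N and 6.15, 5.18 and 6.61 CPM in adult 1N, against 19.4, 18.4 and 21.7 CPM in P7 2N and 33.5, 24.2 and 15.8 CPM in P7 1N. Adult libraries did not overlap P7 libraries, and the fall was −2.42 ± 0.32 SE (adjusted p = 1.68e-05) in 2N and −1.97 ± 0.32 SE (adjusted p = 0.000108) in 1N.

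Kcnv2, which encodes a silent subunit that forms no channel alone and joins other potassium pores, had 0 counts in all 12 E18.5 and P7 libraries. The adult libraries had 24.4, 17.6 and 26.2 CPM in 2N and 23.3, 13.7 and 15.7 CPM in 1N. With a floor of 3 counts over a group at 0, adult was at least 411-fold higher than P7 in 2N and at least 369-fold higher in 1N. Against E18.5 the bounds were at least 511-fold in 2N and at least 429-fold in 1N, and all 4 contrasts were called (adjusted p = 5.02e-09, 4.93e-09, 7.37e-10 and 1.36e-09).

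Kcng2, another silent subunit, was called in no age comparison with all libraries. It had 55.8, 29.2 and 59.7 CPM in E18.5 2N, 33.7, 44.7 and 54.4 CPM in E18.5 1N, 158, 212 and 87 CPM in P7 2N and 141, 115 and 158 CPM in P7 1N. Adult values were 124, 151 and 16 CPM in 2N and 104, 157 and 24.2 CPM in 1N. Without adult 2N library 3, P7 against E18.5 was called in 2N (1.63, adjusted p = 0.0231) and 1N (1.66, 0.0363), as was adult against E18.5 in 2N (1.57, 0.0322). Without both adult libraries numbered 3, adult exceeded E18.5 by 1.57 in 2N and 1.55 in 1N. Those libraries were singled out for their low Kcng2, Hcn2 and Kcnk3 values, so these values without them are a description and no separate test. The cause of the low libraries was not tested.

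Kcna7, a relative of Kcna4 and Kcna5, rose from P7 to the adult by 2.23 ± 0.55 SE (adjusted p = 0.00430) in 2N and 2.03 ± 0.55 SE (adjusted p = 0.00724) in 1N. Kcnq5, a neuronal relative of Kcnq1, fell from E18.5 to the adult, with −2.31 ± 0.92 SE (adjusted p = 0.0399) in 2N and −4.64 ± 0.92 SE (adjusted p = 0.000435) in 1N, the 2N call being lost without any of the 6 libraries compared (0.0618 to 0.0892) or with quantile normalization (0.137), and the 1N value moving to −2.97 without adult 1N library 2, which held 0 counts. Kcnh7, a neuronal relative of Kcnh2, was called in no comparison. Its group means lay between 2.26 ± 1.0 CPM in P7 1N and 4.31 ± 1.41 CPM in E18.5 2N (SD, n = 3 each).

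The slow and rapid delayed rectifiers IKs and IKr followed different courses. Kcne1, the auxiliary subunit that slows IKs, was the most abundant member per kilobase before the adult and fell sharply afterwards. It had 365, 243 and 289 CPM in E18.5 2N and 335, 266 and 365 CPM in E18.5 1N. At P7 it had 677, 684 and 661 CPM in 2N and 623, 621 and 701 CPM in 1N, and in the adult 26.1, 31.7 and 19.2 CPM in 2N and 44.8, 65.4 and 30.7 CPM in 1N. The 3 ages did not overlap in either class. The rise to P7 was 1.19 ± 0.23 SE (adjusted p = 0.000884) in 2N and 1.02 ± 0.23 SE (adjusted p = 0.00523) in 1N. The fall to the adult was −4.74 ± 0.23 SE (adjusted p = 3.68e-10) in 2N and −3.85 ± 0.23 SE (adjusted p = 2.88e-09) in 1N.

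Its pore partner Kcnq1 was called in no comparison with all libraries. It had 70.8, 124 and 119.7 CPM in E18.5 2N and 132, 137 and 165 CPM in E18.5 1N. It had 133, 133 and 144 CPM in P7 2N and 131, 131 and 125 CPM in P7 1N, and 106, 115 and 127 CPM in adult 2N and 122, 104 and 124 CPM in adult 1N. The lowest value was that of E18.5 2N library 1, and the other 17 libraries lay between 104 and 165 CPM. Without that library, small falls were called from P7 to the adult in 2N (−0.24, adjusted p = 0.0467) and from E18.5 to the adult in 1N (−0.30, 0.0116). Without E18.5 2N library 2 or 3 the step to P7 in 2N was called (0.57, 0.0203, and 0.54, 0.0302). The overlapping antisense transcript there is Kcnq1ot1. Counts of Kcne1 per count of Kcnq1 were 5.15, 1.96 and 2.41 in E18.5 2N and 2.54, 1.95 and 2.21 in E18.5 1N. They were 5.08, 5.14 and 4.58 in P7 2N and 4.74, 4.73 and 5.59 in P7 1N. In the adult they were 0.246, 0.276 and 0.151 in 2N and 0.366, 0.629 and 0.247 in 1N. So Kcne1 outnumbered Kcnq1 in all 12 libraries before the adult and was outnumbered by it in all 6 adult libraries.

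Kcnh2, the IKr pore, peaked at P7. It had 47.9, 58 and 92 CPM in E18.5 2N, 73.5, 84.4 and 89.4 CPM in E18.5 1N, 154, 191 and 148 CPM in P7 2N and 215, 184 and 186 CPM in P7 1N. Adult levels were 76.6, 75.5 and 92.8 CPM in 2N and 117, 63.3 and 81.6 CPM in 1N, overlapping the E18.5 range of each class. The rise to P7 (1.36 ± 0.23 SE, adjusted p = 0.000232 in 2N and 1.24 ± 0.23 SE, adjusted p = 0.000952 in 1N) and the fall to the adult (−1.01 ± 0.23 SE, adjusted p = 0.00213 in 2N and −1.20 ± 0.23 SE, adjusted p = 0.000452 in 1N) were called. Kcne2, a small subunit that can join several potassium pores, was at 0 in all 6 adult libraries. It had 0.252, 0.744 and 0.620 CPM in P7 2N and 0.217, 0.979 and 1.16 CPM in P7 1N. With the floor of 3 counts over the group, adult was at least 8.58-fold lower than P7 in 2N and at least 12.2-fold lower in 1N, and both were called (adjusted p = 0.000183 and 7.35e-05).

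**Figure D4:**
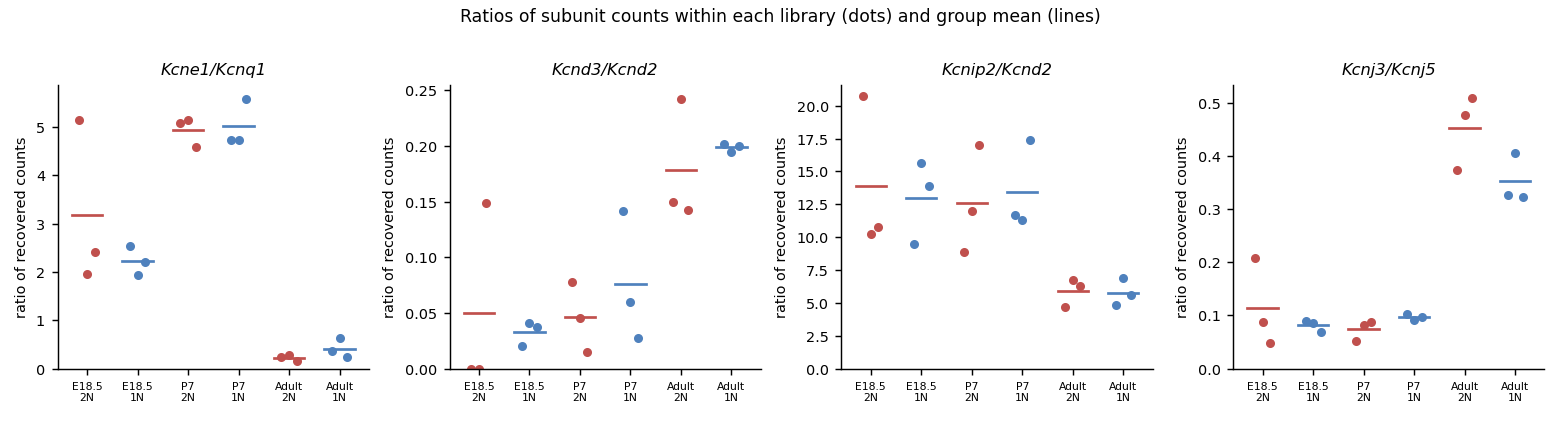
Ratio of recovered counts within each library (dots) and group mean (line) for 4 pairs of subunits in 2N (red) and 1N (blue) cells at 3 ages. Kcne1/Kcnq1 is above 1 in all 12 E18.5 and P7 libraries and below 1 in the 6 adult ones, while the group means of Kcnj3/Kcnj5 and Kcnd3/Kcnd2 are highest in the adult and those of Kcnip2/Kcnd2 lowest there.

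Cytoplasmic beta subunits of Kcna-type pores fell. Kcnab3 had 0.177, 0.133 and 0.402 CPM in adult 2N and 0, 1.04 and 0.122 CPM in adult 1N, against 1.21, 2.92 and 2.08 CPM in P7 2N and 3.0, 2.94 and 2.79 CPM in P7 1N (−3.01 ± 0.90 SE, adjusted p = 0.0147 in 2N and −4.15 ± 0.90 SE, adjusted p = 0.00146 in 1N). The 2N call was lost without P7 2N library 2 (0.0588) or adult 2N library 2 (0.0550), and its exons overlap an opposite-strand transcript, Kcnab3os. Kcnab2 fell in 2N from E18.5 to the adult (−5.07 ± 1.03 SE, adjusted p = 0.000523), where adult 2N held 1 count in all against 95, a 70.1-fold lower level with an exact counting interval of 12.3 to 2799. In 1N that step was not called (−2.40 ± 1.03 SE, adjusted p = 0.0604), but was with an offset of 2 (0.0217), with array or voom weights (0.0454 and 0.0258), in a fit of the groups compared (0.0139) and without P7 1N library 1 or 3 (0.0161 and 0.0449). Kcnab2 also fell in 2N from E18.5 to P7 (−3.30 ± 1.03 SE, adjusted p = 0.0207), a call lost without P7 2N library 2 or 3 (0.0703 and 0.0784). Kcne1l, a relative of Kcne1, was called in 2N for adult against E18.5 alone (−2.66 ± 0.97 SE, adjusted p = 0.0268), and the 1N value was −1.28 ± 0.97 SE (adjusted p = 0.282). The 2N call was lost without adult 2N library 2 (−1.30, 0.177), without E18.5 2N library 2 or 3 (0.0791 and 0.0554), in a fit of the groups compared (0.113) and with quantile normalization (0.180).

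The inward rectifiers that hold the resting potential rose. Kcnj2, the main pore of IK1 in ventricle, had 21, 40.3 and 41.7 CPM in E18.5 2N and 52.2, 45.1 and 55.6 CPM in E18.5 1N. At P7 it had 91.4, 88.6 and 72.6 CPM in 2N and 89.4, 54.4 and 42.6 CPM in 1N, and in the adult 123, 137 and 154 CPM in 2N and 155, 83 and 137 CPM in 1N. In 2N the step to P7 was called (1.35 ± 0.29 SE, adjusted p = 0.00180) and the step to the adult was not (0.71 ± 0.29 SE, adjusted p = 0.0634), although without E18.5 2N library 1 it was (0.0197), as with array or voom weights (0.00568 and 0.0480), in a fit of the groups compared (0.00205) and without P7 1N library 1 (0.0403) or adult 1N library 2 (0.0456). In 1N the values were 0.22 ± 0.29 SE (adjusted p = 0.664) to P7 and 1.03 ± 0.29 SE (adjusted p = 0.00864) to the adult, a call lost without P7 1N library 3 (0.0549). The difference between the classes in the step to P7 was itself not called (class difference at P7 against that at E18.5, 1.13 ± 0.41 SE, adjusted p = 0.195). With array weights it was called (0.93, adjusted p = 0.0269), as was 2N against 1N at P7 (0.63, adjusted p = 0.0186). Kcnj12, its partner in IK1, rose by P7 in both classes (1.17 ± 0.21 SE, adjusted p = 0.000551 in 2N and 0.82 ± 0.21 SE, adjusted p = 0.0125 in 1N), the 1N call being lost without P7 1N library 1 (0.0588), and had 53.9 ± 12.8 CPM in adult 2N and 61.1 ± 11.2 CPM in adult 1N (SD, n = 3 each).

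Kcnj14, a low member of the same family, had 4.43, 2.87 and 3.50 CPM in adult 2N and 5.93, 2.56 and 1.90 CPM in adult 1N, against 15 counts in all 3 E18.5 2N libraries together and 3 counts in the 3 E18.5 1N libraries. It rose over this interval in both classes (4.66 ± 0.91 SE, adjusted p = 0.000362 in 2N and 6.27 ± 0.91 SE, adjusted p = 2.26e-05 in 1N). Kcnj4 fell at P7. It had 0.151, 0.186 and 0.0563 CPM in P7 2N and 0.130, 0.233 and 0.175 CPM in P7 1N, against 2.67, 2.55 and 3.39 CPM in E18.5 2N and 3.20, 4.32 and 5.60 CPM in E18.5 1N (−4.28 ± 0.64 SE, adjusted p = 9.40e-05 in 2N and −4.43 ± 0.64 SE, adjusted p = 0.000119 in 1N).

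Subunits of the acetylcholine-gated current also separated. Kcnj3 had 68.6, 66.4 and 63.7 CPM in adult 2N and 60.1, 58.5 and 59.4 CPM in adult 1N, against 11.5, 17.2 and 17.2 CPM in P7 2N and 20.8, 17 and 16 CPM in P7 1N. The adult libraries stood well clear, and the rise was 2.14 ± 0.24 SE (adjusted p = 3.00e-06) in 2N and 1.73 ± 0.24 SE (adjusted p = 2.18e-05) in 1N. Its small rise from E18.5 to P7 in 1N (0.73 ± 0.24 SE, adjusted p = 0.0424) was lost when any of 11 single libraries was left out (0.0529 to 0.151). Kcnj5, the other cardiac subunit of this channel, was not called between P7 and the adult (−0.50 ± 0.29 SE, adjusted p = 0.186 in 2N and −0.12 ± 0.29 SE, adjusted p = 0.778 in 1N), but the 2N fall was called without E18.5 2N library 1 (0.00704), with array weights (0.00759) and in a fit of the groups compared (0.0189). It rose in 2N from E18.5 to P7 (1.02 ± 0.29 SE, adjusted p = 0.0113), a value that moved to 0.53 without E18.5 2N library 1 and was not called in a fit of the groups compared (0.121). Without that library the 1N values were also called, at 0.47 for P7 against E18.5 (0.0176) and 0.35 for adult against E18.5 (0.0364). Counts of Kcnj3 per count of Kcnj5 were 0.374, 0.477 and 0.510 in adult 2N and 0.328, 0.406 and 0.324 in adult 1N, against 0.0514, 0.0825 and 0.0883 in P7 2N and 0.102, 0.0923 and 0.0974 in P7 1N. Kcnj6, the neuronal relative, fell from E18.5 to the adult, with −3.94 ± 0.49 SE (adjusted p = 3.32e-06) in 2N and −3.70 ± 0.49 SE (adjusted p = 7.84e-06) in 1N.

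Kcnj8 and Kcna5 were low at P7. Kcnj8 encodes the pore of ATP-sensitive channels that is prominent in smooth muscle and endothelium. It had 3.95, 3.42 and 1.25 CPM in E18.5 2N, 1.97, 4.78 and 0.181 CPM in E18.5 1N, 0.353, 0.124 and 0.0563 CPM in P7 2N and 0.347, 0.326 and 0.0582 CPM in P7 1N. Adult libraries held 2.42, 3.33 and 2.70 CPM in 2N and 3.02, 4.22 and 2.45 CPM in 1N. The rise from P7 to the adult was called in 2N (4.05 ± 0.93 SE, adjusted p = 0.00244) and 1N (3.83 ± 0.93 SE, adjusted p = 0.00328), and the fall from E18.5 to P7 in 2N (−3.92 ± 0.93 SE, adjusted p = 0.00373) but not in 1N (−2.48 ± 0.93 SE, adjusted p = 0.0754). That 1N fall was called with the replicate block (0.0234), with array weights (0.0328), with quantile normalization (0.0178) and without E18.5 1N library 3 (−3.78, 0.00291). Kcna5, the pore of the ultrarapid delayed rectifier, had 2.84, 2.33 and 3.22 CPM in adult 2N and 2.09, 3.53 and 3.06 CPM in adult 1N, against 0.101, 0.124 and 0.169 CPM in P7 2N and 0.434, 0.0466 and 0.175 CPM in P7 1N. It rose from P7 to the adult by 4.16 ± 0.98 SE (adjusted p = 0.00307) in 2N and 3.94 ± 0.98 SE (adjusted p = 0.00404) in 1N. The 12 endothelial markers, all listed, had summed levels of 65.1 to 137 CPM in E18.5 2N, 18.3 to 35.3 CPM in E18.5 1N, 11.2 to 12.6 CPM in P7 2N, 11 to 26.3 CPM in P7 1N, 103 to 126 CPM in adult 2N and 89.4 to 95.4 CPM in adult 1N. From E18.5 to P7 all 12 were called lower in 2N and 1 in 1N, where Kcna5 was not called (adjusted p = 0.293). From P7 to the adult 11 were called higher in 2N and 10 in 1N, and 0 lower. The 9 listed pericyte and smooth muscle markers summed to 1149 to 1363 CPM in P7 2N and 1125 to 1261 CPM in P7 1N. In the adult they summed to 791 to 848 CPM in 2N and 814 to 1090 CPM in 1N. Over that step 2 were called higher and 4 lower in 2N, and 2 higher and 5 lower in 1N. The part of both lists was not tested. In bulk libraries, fewer cells of a type and less RNA per cell cannot be told apart.

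Kcnk3, the acid-sensitive two-pore-domain background channel, rose at P7 and was among the highest members in the adult. It had 71, 22.4 and 45.3 CPM in E18.5 2N and 71.3, 50.2 and 62.4 CPM in E18.5 1N. It had 183, 271 and 183 CPM in P7 2N and 171, 162 and 212 CPM in P7 1N, then 439, 511 and 171 CPM in adult 2N and 415, 491 and 285 CPM in adult 1N. The rise to P7 was 2.32 ± 0.40 SE (adjusted p = 0.000290) in 2N and 1.57 ± 0.40 SE (adjusted p = 0.00994) in 1N. The further step to the adult was not called in 2N (0.69 ± 0.40 SE, adjusted p = 0.188), but was without adult 2N library 3 (1.18, adjusted p = 0.0193), one of the libraries singled out for low values of this gene among others, and with array weights (0.0342). In 1N it was called (1.10 ± 0.40 SE, adjusted p = 0.0346) and lost without any of 4 libraries (0.0852 to 0.121) or with quantile normalization (0.79, 0.128).

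Of the small-conductance calcium-activated channels, Kcnn1 dipped at P7 and Kcnn2 was called in no comparison with all libraries. Kcnn1 had 13.2, 27.1 and 21.7 CPM in E18.5 2N, 20.8, 28.4 and 26.6 CPM in E18.5 1N, 11.1, 11 and 11 CPM in P7 2N and 9.16, 8.90 and 7.04 CPM in P7 1N. Adult libraries held 31.3, 33.1 and 30.4 CPM in 2N and 31.7, 32.2 and 28.8 CPM in 1N. P7 was below both other ages in every library, with −0.85 ± 0.21 SE (adjusted p = 0.00587) in 2N and −1.59 ± 0.21 SE (adjusted p = 5.66e-05) in 1N from E18.5, and 1.52 ± 0.21 SE (adjusted p = 3.33e-05) in 2N and 1.89 ± 0.21 SE (adjusted p = 2.75e-06) in 1N to the adult. The 2N fall to P7 was lost in a fit of the groups compared (0.100). Kcnn2 ranged from 14.8 to 27.6 CPM over all 18 libraries. Without E18.5 2N library 1 it was called lower in adult than in E18.5 cells in 2N (−0.55, adjusted p = 0.00564) and 1N (−0.34, 0.0449).

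The order of levels can be compared between genes only per kilobase of exon. At E18.5 Kcne1 led with 93 ± 19.1 CPM per kilobase in 2N and 100.1 ± 15.8 in 1N (SD, n = 3 each), ahead of Kcnip2 (31.1 ± 0.711 in 2N and 37.2 ± 5.08 in 1N) and Kcnq1 (25.7 ± 7.25 in 2N and 35.3 ± 4.37 in 1N). At P7 the gap was wider, with Kcne1 at 209.7 ± 3.73 CPM per kilobase in 2N and 202 ± 14.1 in 1N, and Kcnip2 next at 60.1 ± 11.3 in 2N and 48.4 ± 4.19 in 1N. Kcnk3, Kcng2, Kcnj5 and Kcnh2 were among those that followed at P7. The adult order was led by Kcnip2 (113 ± 13.4 CPM per kilobase in 2N and 103 ± 4.69 in 1N) and Kcnk3 (93.9 ± 45.1 in 2N and 99.9 ± 26.2 in 1N), which overlapped.

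Few differences between 2N and 1N cells were called. At E18.5 only Kcna5 was called, 1 of 48 members (2.08%), against 0.805% of all genes, and 7 members (14.6%) had an unadjusted p below 0.05, against 13.9% of all genes. The members' median was −0.12, beside −0.01 over all genes. Kcna5 had 2.10, 3.22 and 1.60 CPM in E18.5 2N and 0.513, 0 and 0 CPM in E18.5 1N, or 33, 82 and 41 counts against 12, 0 and 0. No values overlapped, and the log2 fold change was 5.19 ± 0.98 SE (adjusted p = 0.0171). The call was lost without E18.5 2N library 2 (0.0555), without E18.5 1N library 2 or 3 (0.0659 and 0.0692), without both adult libraries numbered 3 (0.0515), with the replicate block at P7 and in the adult only (0.0794) and in a fit of the 2 groups alone (0.507), in which no gene was called. Markers of other cell types also differed between these groups. Called higher in 2N were 5 of 12 endothelial, 6 of 10 fibroblast, 5 of 6 leukocyte and 1 of 9 pericyte and smooth muscle markers. Leukocyte markers summed to 14.4 to 39.0 CPM in E18.5 2N against 2.37 to 3.16 CPM in E18.5 1N, and Laptm5, C1qb, C1qc and Pdgfrb were at 0 in all 3 E18.5 1N libraries. Their part in the Kcna5 result was not tested. Scn4b, with 50 counts in 2N and 3 in 1N, was not called with all libraries (2.97 ± 1.06 SE, adjusted p = 0.250). It was called without E18.5 2N library 1 (4.63, adjusted p = 0.00607) and with array weights (4.67, 0.000929). Not called either were Cacna2d1 (0.54 ± 0.19 SE, adjusted p = 0.237), Cacnb4 (1.82 ± 0.77 SE, adjusted p = 0.336), Kcnq1 (−0.50 ± 0.17 SE, adjusted p = 0.234), Kcnj2 (−0.63 ± 0.29 SE, adjusted p = 0.353) and Kcnj12 (−0.46 ± 0.21 SE, adjusted p = 0.354), the other members with an unadjusted p below 0.05. The low E18.5 2N library 1 held the lowest Kcnq1 and Kcnj2 values of its group.

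At P7 no member was called between 2N and 1N (0 of 48, against 2.12% of all genes), and 6 (12.5%) had an unadjusted p below 0.05, against 10% of all genes. The members' median was −0.08, beside 0.02 over all genes. Of these 6, 4 were lower in 2N. Cacna2d2 had 1.87, 0.993 and 1.35 CPM in P7 2N and 11, 2.42 and 7.62 CPM in P7 1N (−2.09 ± 0.72 SE, adjusted p = 0.208). Cacnb3 (−1.79 ± 0.71 SE, adjusted p = 0.337), Cacnb4 (−1.76 ± 0.77 SE, adjusted p = 0.428) and Cacna1h (−0.81 ± 0.32 SE, adjusted p = 0.338) were the others. For each of the 4, every 2N library lay below every 1N library, which held for 6 members in all (12.5%), against 14.7% of all genes. Kcnj6 (1.10 ± 0.49 SE, adjusted p = 0.431) and Kcnip2 (0.30 ± 0.14 SE, adjusted p = 0.456) were the 2 that were higher, and they overlapped. Conduction system markers moved alongside, 4 of 7 being called lower in 2N. Without Cacna2d2, which is on that list, the other 6 summed to 104 to 134 CPM in P7 2N and 312 to 622 CPM in P7 1N, against 87.1 to 122 CPM in E18.5 2N and 101 to 107 CPM in E18.5 1N. Gja5, the connexin of Purkinje cells and atria, was called lower in 2N (−2.95 ± 0.45 SE, adjusted p = 0.00148). The 1N library with the highest sum, number 1 at 622 CPM, also held the highest Cacna1h, Cacna2d2, Cacnb3 and Cacnb4 of the P7 1N group. The 6 leukocyte markers summed to 2.36 to 4.79 CPM in P7 2N and 15.1 to 25.9 CPM in P7 1N. Most of them did not follow that sum. Only 1 of the 6 was called lower in 2N and 0 higher, and their median log2 fold change was 0.70. In P7 1N libraries 1 to 3, 2, 4 and 4 of these markers had 0 counts, against 1, 1 and 2 in P7 2N. The part of these markers was not tested.

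In the adult no member was called between the classes (0 of 48, against 0.0913% of all genes), and 5 (10.4%) had an unadjusted p below 0.05, against 2.5% of all genes. Of these 5, Cacna1h and Kcne1 are described here, and the adult class differences of the others are not given. The members' median was −0.04, beside 0.0 over all genes. Cacna1h had 6.62, 5.0 and 6.66 CPM in adult 2N and 25.7, 14 and 13 CPM in adult 1N, without overlap (−1.46 ± 0.32 SE, adjusted p = 0.147). Kcne1 had 26.1, 31.7 and 19.2 CPM in adult 2N and 44.8, 65.4 and 30.7 CPM in adult 1N, which overlapped by 1 library (−0.83 ± 0.23 SE, adjusted p = 0.459). With replicate number as blocking factor these were the 2 members called (adjusted p = 0.0473 for Cacna1h and 0.0301 for Kcne1). Array weights called Cacna1h too (−1.30, adjusted p = 0.0234). A block restricted to P7 and adult libraries, the ages at which same-numbered libraries deviated together more strongly, called 0.

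The estimates bound how large a class difference could be for the better measured members. The 95% interval lay within 2-fold in either direction for 16 members at E18.5, 17 at P7 and 16 in the adult. For Kcnip2 it was −0.54 to 0.04 at E18.5, 0.01 to 0.59 at P7 and −0.17 to 0.41 in the adult on the log2 scale. For Kcnq1 it was −0.86 to −0.14, −0.28 to 0.44 and −0.37 to 0.35 at the same ages. Intervals of low members were several log2 units wide, as for Hcn2 in the adult (−2.93 to 2.29).

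**Figure D5:**
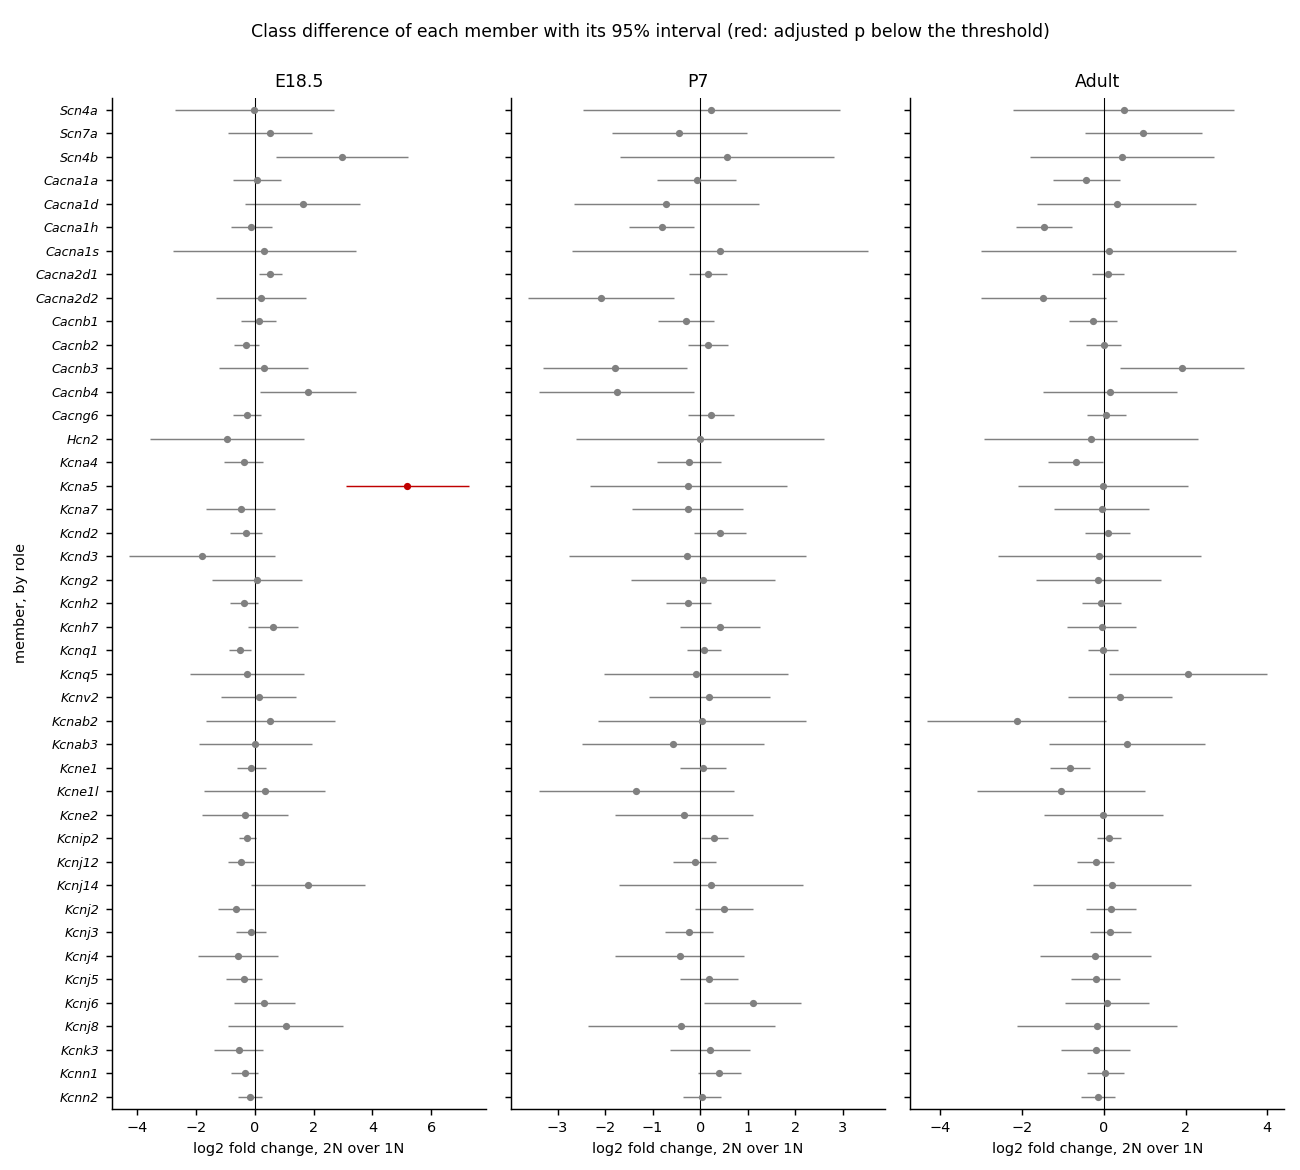
Log2 fold change of 2N over 1N with its 95% interval for 43 of the 48 members at the 3 ages; red marks an adjusted p below 0.05 and grey the rest. Kcna5 at E18.5 (5.19) is the one red point, and intervals are narrow for Kcnip2 and Kcnq1 and wide for low members such as Hcn2.

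No member's class difference was called to change between ages. From E18.5 to P7 the count was 0 of 48, against 2.33% of all genes, with 7 members (14.6%) at an unadjusted p below 0.05, against 14.7% of all genes. Kcna5 had the lowest of these p-values (−5.44 ± 1.39 SE, adjusted p = 0.0512), followed by Cacnb4 (−3.58 ± 1.09 SE, adjusted p = 0.112), which was higher in 2N at E18.5 and lower in 2N at P7. Kcna5 was called with median-ratio scaling (0.0488), an offset of 2 (0.0238), array weights (0.0397), voom weights (0.0427) and without E18.5 1N library 1 (0.00158), E18.5 2N library 1 (0.0487) or P7 1N library 2 (0.0419). Cacnb4 was called with an offset of 2 (0.0198), array weights (0.0316), voom weights (0.0167), a fit of the groups compared (0.0225) and without adult 1N library 2 (0.0278). Scn4b was called without E18.5 2N library 1 (−4.06, 0.0316) and with array weights (−4.59, 0.00311). Array weights also called Kcnj2 (0.93, 0.0269) and Kcnip2 (0.59, 0.0302). From P7 to the adult the count was 0 of 48, against 0.208% of all genes, with 2 members (4.17%), Cacnb3 and Kcne1, at an unadjusted p below 0.05, against 4.71% of all genes (3.70 ± 1.01 SE, adjusted p = 0.190 and −0.89 ± 0.33 SE, adjusted p = 0.629).

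The other genes of these pathways were read from fixed lists. Of 33 genes for channel partners, 25 were listed, and in adult against E18.5 10 rose and 6 fell in 2N (64%, against 57.7% of all genes), and 10 rose and 5 fell in 1N (60%, against 53.8% of all genes). None was called between 2N and 1N at any age. Abcc9, the regulatory subunit of cardiac ATP-sensitive channels, rose by 1.87 ± 0.28 SE (adjusted p = 2.89e-05) in 2N and 1.32 ± 0.28 SE (adjusted p = 0.000829) in 1N, and Rrad, a small GTPase that restrains calcium channels, by 1.77 ± 0.18 SE (adjusted p = 3.37e-07) in 2N and 1.72 ± 0.18 SE (adjusted p = 5.63e-07) in 1N. Slc8a1, the sodium-calcium exchanger, fell, with −1.02 ± 0.21 SE (adjusted p = 0.000555) in 2N and −1.29 ± 0.21 SE (adjusted p = 6.78e-05) in 1N, as did Stac2, a calcium channel adaptor, with −5.10 ± 0.83 SE (adjusted p = 5.99e-05) in 2N and −5.21 ± 0.83 SE (adjusted p = 5.47e-05) in 1N.

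Of 14 transcription factor genes known to act on channel genes, 13 were listed, and 3 were called lower in P7 2N than in P7 1N (23.1%, against 2.06% of all genes). These were Etv1 (−2.13 ± 0.23 SE, adjusted p = 0.000132), a regulator of fast conduction, Tbx3 (−2.19 ± 0.39 SE, adjusted p = 0.00512), which represses working-muscle genes in the conduction system, and Irx5 (−1.25 ± 0.20 SE, adjusted p = 0.00219), a repressor of Kcnd2. Etv1 and Tbx3 are also on the list of conduction system markers, whose sums at P7 are given above, and the part of those markers in the regulators' results was not tested. Klf15, a circadian regulator of Kcnip2 in mouse, fell from E18.5 to P7 (−1.11 ± 0.18 SE, adjusted p = 0.000223 in 2N and −1.54 ± 0.18 SE, adjusted p = 1.63e-05 in 1N) and rose to the adult (2.90 ± 0.18 SE, adjusted p = 5.62e-09 in 2N and 3.05 ± 0.18 SE, adjusted p = 2.59e-09 in 1N).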

How the data were processed

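RNA was measured in 18 libraries of sorted cardiomyocytes, 3 in each of 6 groups. Per the labels' protocols, cells were sorted into Trizol-LS and libraries made with TruSeq stranded mRNA and Clontech SMARTer kits. The submitters' processing notes name STAR, limma and build mm9, without versions. The authors deposited log2 values for 12048 Ensembl identifiers per library, from which whole counts were recovered (100% within 0.001), each value being log2 of a count plus 0.5 times 1 factor per library. The scale's constant is not stated, so CPM use these factors, set to the geometric mean of the recovered totals. Genes the authors did not list could not be assessed. Amplified libraries without molecular identifiers make counting intervals cover counting error only. Symbols and exon lengths came from GENCODE M21 (11927 identifiers matched, 121 did not), and promoters from RefSeq for 33 of 48 members.

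limma 3.58.1 in R 4.3.3 fitted 6 group means to the deposited values of all 18 libraries, with an intensity trend, and adjusted two-sided p-values over 12048 genes per comparison, with a threshold of 0.05. The deposited unit is log2, so no count model was run. The script was tested on simulated data. Same-numbered 2N and 1N libraries deviated together at P7 (r over all genes 0.182, 0.191 and 0.236) and in the adult (0.261, 0.264 and 0.327), and more weakly at E18.5 (0.0879, 0.0545 and 0.158). Libraries with different numbers at E18.5 had r of -0.0949 to 0.00177. The labels do not say what the numbers mark. The members, gene lists and tests were chosen with earlier results of these data known. Genes of the main cardiac currents were always named, along with every called member of a comparison, or up to 8 per direction by adjusted p where more than 10 were called, and others are given to account for the members. Some named genes are not reported here, although the counts over the 48 include them. Exons of 21 members overlap another annotated gene, mostly on the opposite strand, and the sources used here do not say whether counting used the strand. Alternatives were other scalings, offsets, weights, filters, blocks and libraries left out. For class comparisons the replicate block had a term for each age and number. For age comparisons it had terms for the number that all ages share, although the labels do not link the numbers between ages.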

Additional observations from a re-analysis of the deposited data

How the results depend on the processing

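Leaving out single libraries, the members called ranged from 0 to 2 for 2N against 1N at E18.5, 0 to 0 at P7 and 0 to 0 in the adult. In 2N cells they ranged from 20 to 26 for P7 against E18.5, 19 to 30 for adult against P7 and 35 to 39 for adult against E18.5. In 1N cells the ranges were 13 to 25, 24 to 29 and 32 to 38. The tests of a class difference between ages ranged from 0 to 2 and from 0 to 1. For 2N against 1N at E18.5 (1 member called), array weights gave 2, a fit of the groups compared gave 0, a block on P7 and adult libraries alone gave 0, and leaving out both adult libraries numbered 3, an alternative chosen after seeing the data, gave 0. At P7 (0 called) array weights gave 1, and in the adult (0 called) they gave 1. The replicate block called 2 in the adult, kept the count of 1 at E18.5 and 0 at P7, and moved no count of the age comparisons by over 1.5 times (22 in place of 20 for P7 against E18.5 in 1N, and 38 in place of 39 for adult against E18.5 in 2N). For the change of the class difference from E18.5 to P7 (0 called), median-ratio scaling gave 1, an offset of 2 counts gave 2, array weights gave 5, voom weights gave 2 and a fit of the groups compared gave 1. From P7 to the adult (0 called) array weights gave 1. Of 166 calls of single members over all comparisons, 38 were lost under at least 1 alternative, and of 136 that the naming rule covers 23 were, none of them reversed. Of 362 pairs of a member and a comparison that were not called, 71 were called under at least 1 alternative. At E18.5 the block result is of samples that share a number and deviated together only weakly. Depth limits the members at a few counts per library, whose intervals spanned several log2 units.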
